A study of Mus musculus with 31 samples.

Results

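The collagen chain genes are the genes that encode the polypeptide chains of the collagens, and they were taken as every row of the expression table whose symbol reads Col, a number, the letter a and a number. This gave 44 of the 27623 genes in the table. They were followed in the colon of mice 7 days post induction, in 31 RNA sequencing libraries of 3 genotypes. In the DHO group (n = 10) the mice were Tradd IEC-KO as well as TAK1 IEC-KO, on Ripk1 D138N/D138N, so that intestinal epithelial cells (IEC) lacked both TAK1, a kinase of TNF and Toll-like receptor signalling encoded by Map3k7, and TRADD, an adaptor of the TNF receptor complex. In the HO group (n = 10) the genotype was TAK1 IEC-KO Ripk1 D138N/D138N, and in the WT group (n = 11) it was Tak1 f/f Ripk1 D138N/D138N, with floxed Tak1. All 3 groups, WT included, carried the Ripk1 D138N/D138N alleles, which inactivate the kinase of RIPK1, a component of the same receptor complex. The sources used here do not give the promoter of the Cre, the inducing agent, or the age and sex of the mice. The series states as its question the role of TRADD in the colitis of mice whose intestinal epithelium lacks TAK1.

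Collagens are trimers of chains wound into a helix, and each type is built from its own chains, some of a single gene product and some of different ones. The fibrillar collagens form the cable-like fibrils of connective tissue, type IV collagen forms the sheet-like network of basement membranes under epithelia and around vessels and muscle cells, and type VI collagen forms beaded filaments between fibrils and cells. Other members decorate fibrils (the fibril-associated collagens, FACITs), span the cell membrane, or, as the multiplexins types XV and XVIII, carry sugar chains and lie at basement membranes. In the gut wall, fibroblasts, smooth muscle cells, pericytes and endothelial cells are known makers of collagen chains. Fibroblasts and myofibroblasts are known to lay down fibrillar collagen in chronic inflammation of the bowel.

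Values are fragments per kilobase of transcript scaled to library size (FPKM), as the authors deposited them, so levels can be set side by side between genes. The depth read back from the steps of low values was 32400000, 39000000 and 39500000 fragments (lowest, median and highest) in DHO libraries, 30800000, 36600000 and 40400000 in HO libraries and 33300000, 38600000 and 39900000 in WT libraries. Tradd lay between 1.36 and 3.89 FPKM in DHO libraries, against 12.4 to 59.2 FPKM in HO libraries and 45.9 to 97.5 FPKM in WT libraries. Map3k7 lay between 8.42 and 16.7 FPKM in DHO libraries, between 11.6 and 16.9 FPKM in HO libraries and between 8.29 and 13.6 FPKM in WT libraries. A value per gene over whole tissue counts exons outside the deleted part and cells outside the epithelium, so Map3k7 checks no label here. Nothing in the labels states that separate animals gave the libraries, so p-values cover only the spread seen here, which may be technical. The noncoding RNA Gm15564 divided the libraries into a set of 17 with at most 0.0736 FPKM (set 1: 6 DHO, 5 HO and 6 WT) and a set of 14 with at least 6.27 FPKM (set 2: 4 DHO, 5 HO and 5 WT). The labels name no batch, and values within a set are given below where they end a call or differ clearly from the main value.

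Some libraries stood apart from their group. DHO 8 lay above the 8 DHO libraries other than DHO 8 and DHO 9 in all 18 collagen genes that were called higher in HO than in WT, and DHO 9 lay above them in 15. Both belong to set 2. Counts of calls in DHO are given with and without this pair, and single values where leaving it out ends or adds a call or moves the value by much. The pair was singled out by its collagen values, so leaving it out moves the collagen results by construction. Values without it are descriptive, and their p-values are not tests of a group difference. Among HO libraries, HO 4 held the highest value of 12 of those 18 genes, HO 7 the lowest of 7 and HO 2 the lowest of 4. The markers of epithelium (8 genes) summed to 4326 FPKM in HO 2 and to 5.54 FPKM in HO 7, with a median of 78.9 FPKM over HO libraries, 5209 FPKM over DHO libraries and 4626 FPKM over WT libraries. Of all genes tested, 33.0% were called higher and 38.4% lower in HO against WT. In that comparison all 8 epithelial markers were called lower and all 10 smooth muscle markers lower. All 6 macrophage markers were called higher, and 6 of 7 neutrophil markers higher with 1 lower. In bulk tissue, fewer cells of a type and less RNA per cell cannot be told apart, and the part of these shifts in the values below was not tested.

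Collagen chains took a larger part of the measured RNA in HO colon than in the colon of either other group. Their summed level was 366.1, 485.0 and 1444 FPKM (lowest, median and highest) in DHO libraries, 1054, 2010 and 3027 FPKM in HO libraries and 455.7, 606.6 and 898.6 FPKM in WT libraries. Every HO library lay above every WT library, while the top DHO libraries, DHO 8 and DHO 9, reached into or near the HO range. As a share of the table HO and WT overlapped, since HO 7 (0.1996%) lay below WT 7 (0.2056%). As a share of the table, collagen FPKM made up 0.372% ± 0.132 (SD, n = 10) in HO and 0.129% ± 0.0390 (n = 11) in WT, a difference of 0.243 percentage points (two-sided permutation test, p = 2.00e-05, the smallest the resamples can give, 6.00e-05 adjusted over 3 comparisons). In DHO the share was 0.130% ± 0.0826 (n = 10), which is 0.241 percentage points below HO (permutation test, adjusted p = 0.000600). From WT, DHO differed by 0.00163 percentage points (permutation test, adjusted p = 0.948). Without DHO 8 and DHO 9 the DHO share was 0.0945% ± 0.0203 (n = 8), which is 0.0342 percentage points below WT. These libraries hold the highest DHO shares (0.3336% and 0.2140%), so leaving them out lowers DHO by construction, and no test is read from it. Within set 2 the difference of DHO from HO was -0.159 percentage points and did not pass (exact permutation test, adjusted p = 0.167), with 4 and 5 libraries.

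**Figure D1:**
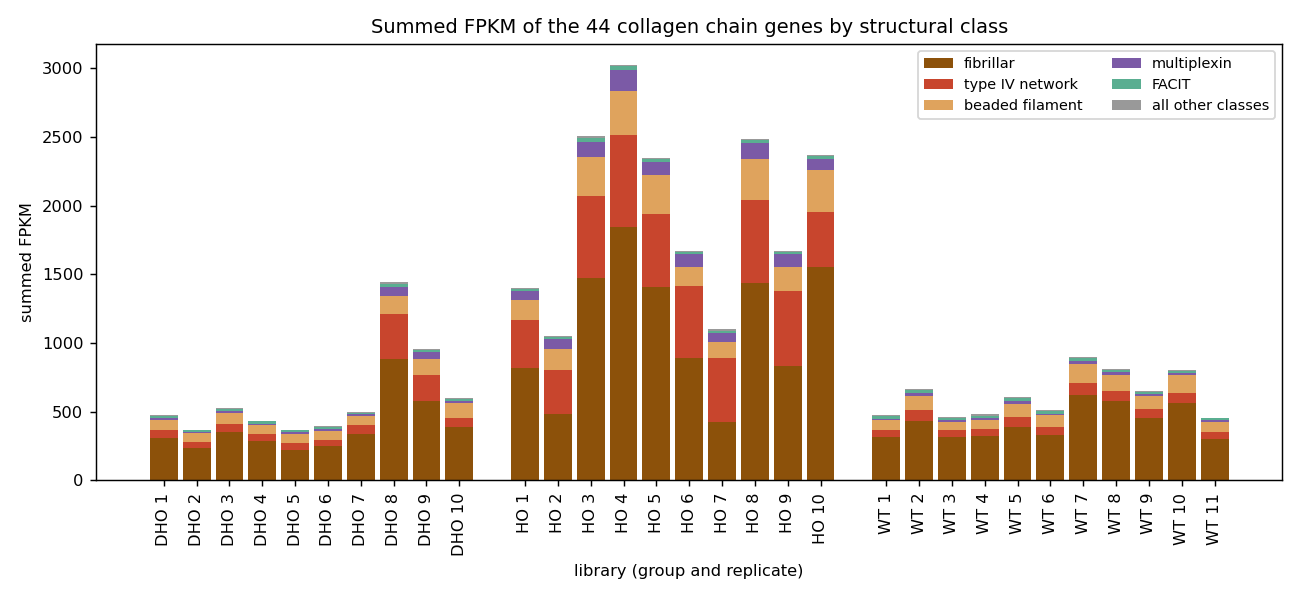
Stacked bars give the summed FPKM of the 44 collagen chain genes in each library, with DHO libraries on the left, HO libraries in the middle and WT libraries on the right, and colours for structural classes. HO libraries reach 1054 to 3027 FPKM, WT libraries 455.7 to 898.6 FPKM, and DHO 8 stands out among DHO libraries at 1444 FPKM.

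Of the 44 genes, 27 had at least 1 FPKM in at least 10 libraries and were tested, and 17 lay under that filter. Among the tested ones, Col13a1 passed the filter through HO libraries alone, so its higher level in HO was fixed by its entry. Its calls are part of the counts below. Col23a1, Col27a1 and Col6a4 reached 1 FPKM in all 10 HO libraries and in fewer WT and DHO libraries. Col8a2, Col28a1 and Col4a6 entered mainly through WT, with 8, 8 and 9 WT libraries among 10, 10 and 12 at 1 FPKM. Calls of these genes in the direction of that entry are tied to the filter. In HO against WT, 18 of the 27 were called higher, 6 lower and 3 did not pass the threshold, by limma on log2(FPKM + 0.5) at a Benjamini-Hochberg adjusted p of at most 0.05. Over all 12812 genes tested, 33.0% were called higher and 38.4% lower in the same comparison. The median log2 fold change was 0.89 over the 27 collagen genes and -0.06 over all genes tested. In 5 collagen genes (Col4a1, Col4a2, Col18a1, Col5a2 and Col13a1) every HO library lay above every WT library. Over all genes tested 16.1% did so and 15.9% lay the other way round. For Col13a1 the filter fixed this in advance, and 5 of 27 is near the share over all genes. The separation is therefore given by gene and not as a result about the collagen genes. With no filter on low values all 44 could be fitted, and 24 were called higher and 8 lower, where 23.8% and 24.1% of all 27623 genes were. Within set 2 alone, 13 of the 27 were called higher and 5 lower, where 31.4% and 36.3% of all genes were.

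In DHO against HO, 20 of the 27 tested collagen genes were called lower (limma), where 29.7% of all genes tested were, and Col4a6 and Col14a1 were called higher, where 39.0% of all genes were. The median log2 fold change was -0.95 over the collagen genes and 0.10 over all genes tested. Without DHO 8 and DHO 9, 21 were under the threshold as lower and 4 as higher (31.1% and 39.9% of all genes). The collagen median was then -1.15. That pair was singled out by its collagen values, so these counts are descriptive and not tests. Col8a1, from which no call is read below, is among the 21. In set 2 alone 11 were called lower, where 26.5% of all genes were, and limma called none higher, also at an unadjusted p under 0.05, where 33.5% of all genes were called. In DHO against WT no tested collagen gene was called higher by limma (12.5% of all genes were), also none at an unadjusted p under 0.05, and Col4a5, Col4a6, Col8a2 and Col28a1 were called lower (8.70% of all genes were). The calls of Col4a6, Col8a2 and Col28a1 are tied to their entry mainly through WT, as stated above. Without DHO 8 and DHO 9, again as description only, 3 of the 4 stayed under the threshold as lower (4.01% of all genes) and Col4a6 did not. None was higher (6.18% of all genes). Within set 2 alone, 2 were called higher (21.1% of all genes) and 4 lower (18.7% of all genes). A value that misses the threshold does not show that DHO and WT had the same level. The comparisons share their libraries, so the fall in DHO against HO and the rise in HO against WT rest on the same HO values.

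**Figure D2:**
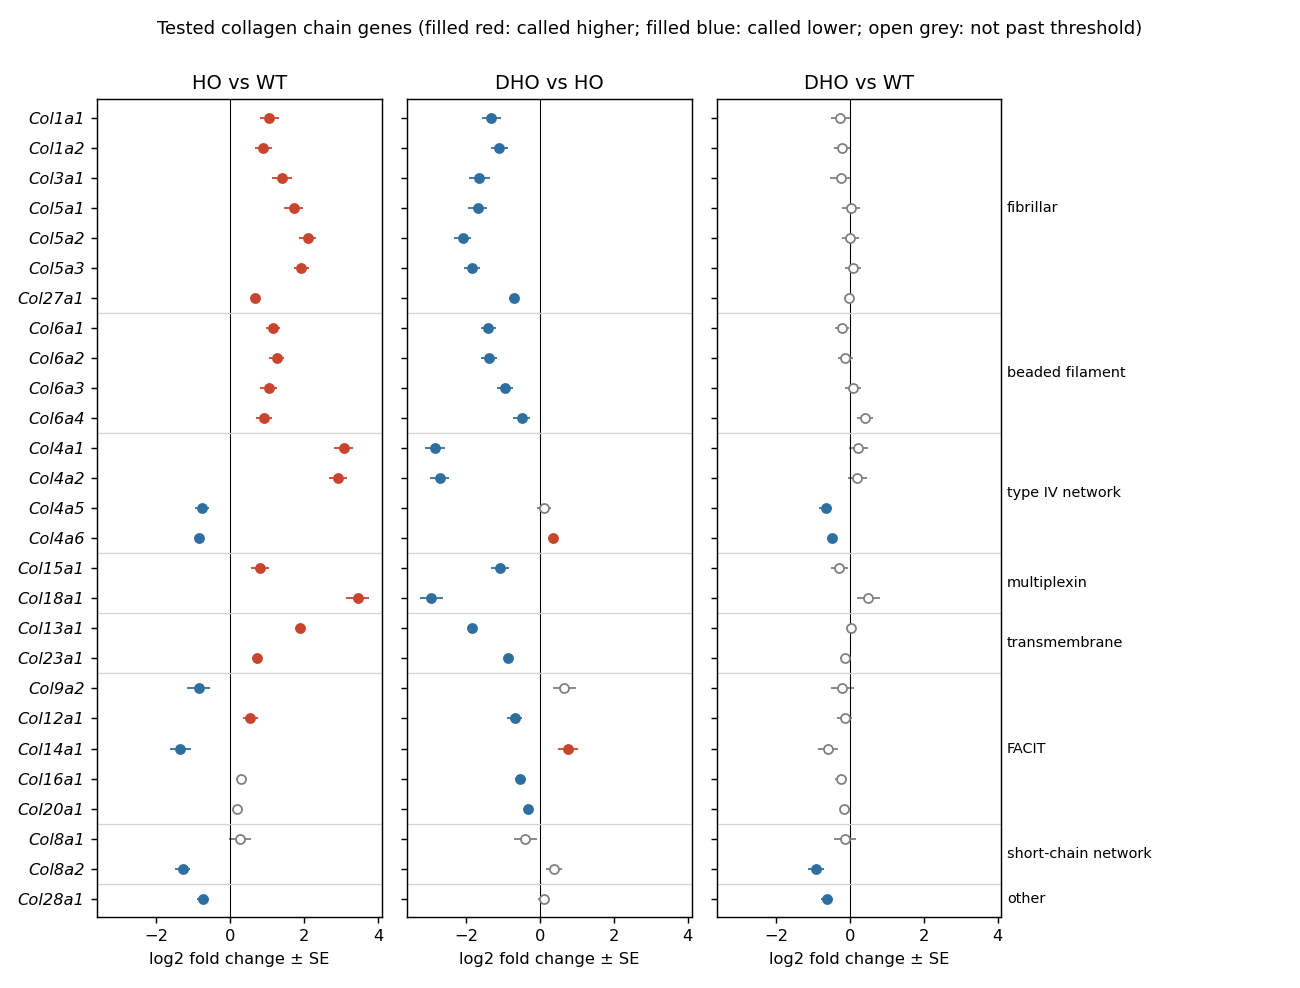
Points give the log2 fold change of each of the 27 tested collagen genes on the log2(FPKM + 0.5) scale, with bars for its SE from limma, in HO against WT, DHO against HO and DHO against WT, grouped by structural class. Filled red points were called higher, filled blue points lower, and open grey points did not pass. Col18a1, Col4a1 and Col4a2 lie farthest to the right in HO against WT (3.45, 3.07 and 2.92) and farthest to the left in DHO against HO (-2.95, -2.83 and -2.71).

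The type IV chains moved in opposite directions. Col4a1 and Col4a2, which encode the chains of the ubiquitous basement membrane network, were 8.37-fold and 7.56-fold higher in HO than in WT on the log2(FPKM + 0.5) scale, while Col4a5 and Col4a6, chains of the networks found in kidney, smooth muscle and some epithelial basement membranes, were lower. Col4a1 had 24.5, 31.6 and 200.4 FPKM (lowest, median and highest) in DHO libraries, 199.1, 329.7 and 413.3 FPKM in HO libraries and 26.3, 36.2 and 53.0 FPKM in WT libraries. Col4a2 had 15.5, 21.1 and 121.8 FPKM in DHO libraries, 124.7, 190.0 and 251.8 FPKM in HO libraries and 16.8, 24.03 and 30.8 FPKM in WT libraries. For both genes the HO and WT libraries did not overlap, and DHO 8 (200.4 and 121.8 FPKM) and DHO 9 (114.7 and 69.99 FPKM) lay far above the other DHO libraries, which had at most 39.1 and 24.9 FPKM. The log2 fold change in HO against WT was 3.07 for Col4a1 (SE 0.265, limma adjusted p = 1.17e-11). It was 2.92 for Col4a2 (SE 0.252, limma adjusted p = 1.09e-11). Within the sets these values were nearly alike, with 3.11 in set 1 and 3.0 in set 2 for Col4a1 and 2.93 and 2.90 for Col4a2.

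Against HO, the log2 fold change of Col4a1 in DHO was -2.83 (SE 0.272, limma adjusted p = 1.79e-10) and that of Col4a2 was -2.71 (SE 0.258, adjusted p = 1.50e-10). Without DHO 8 and DHO 9 the values were -3.29 and -3.15. From WT, DHO differed in Col4a1 by 0.23 (limma adjusted p = 0.562) and Col4a2 by 0.21 (adjusted p = 0.589), and by -0.22 and -0.23 without that pair of libraries, none past the threshold. As a share of all collagen FPKM, Col4a1 made up a median of 6.99% in DHO, 15.6% in HO and 6.05% in WT. The markers of endothelium (8 genes), a cell type whose basement membrane holds these chains, moved with them. They summed to 30.5 to 108 FPKM in DHO libraries, 130 to 316 FPKM in HO libraries and 43.3 to 74.6 FPKM in WT libraries. In HO against WT, 6 of 8 were called higher, where 33.0% of all genes tested were. The pericyte markers (5 genes) summed to 31 to 119 FPKM in DHO libraries, 170 to 242 FPKM in HO libraries and 42.8 to 72.2 FPKM in WT libraries. Of these markers, 4 of 5 were called higher in HO than in WT, beside the same 33.0%. The part of either cell type in the Col4a1 and Col4a2 values was not tested.

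Col4a5 had 0.899, 1.57 and 2.73 FPKM (lowest, median and highest) in DHO libraries, 0.744, 1.49 and 2.504 FPKM in HO libraries and 1.59, 2.90 and 4.61 FPKM in WT libraries. Col4a6 had 0.440, 0.725 and 1.15 FPKM in DHO libraries, 0.234, 0.413 and 1.06 FPKM in HO libraries and 0.759, 1.32 and 1.64 FPKM in WT libraries. Both genes were lower in HO and in DHO than in WT, with overlapping groups. Col4a6 entered the test mainly through WT, so its falls against WT are tied to the filter. In HO against WT the log2 fold change was -0.77 for Col4a5 (SE 0.182, limma adjusted p = 0.000420) and -0.85 for Col4a6 (SE 0.136, adjusted p = 1.83e-06). Between DHO and WT it was -0.66 for Col4a5 (SE 0.182, limma adjusted p = 0.0120) and -0.49 for Col4a6 (SE 0.136, adjusted p = 0.0122). Between DHO and HO, Col4a6 was 0.36 higher in DHO (SE 0.140, limma adjusted p = 0.0234), and Col4a5 differed by 0.11 (adjusted p = 0.624). The Col4a6 value passed neither within set 1 (0.35, limma adjusted p = 0.0816) nor within set 2 (0.33, adjusted p = 0.214). Within set 1, Col4a5 did not pass in HO against WT (-0.36, limma adjusted p = 0.0942), against -1.24 in set 2. In DHO against WT neither gene passed within set 1, with -0.41 for Col4a5 (limma adjusted p = 0.263) and -0.35 for Col4a6 (adjusted p = 0.292). Of all genes tested, 38.4% were called lower in HO against WT, 8.70% lower in DHO against WT and 39.0% higher in DHO against HO. Smooth muscle markers (10 genes) were called lower in HO against WT (10 of 10) and in DHO against WT (9 of 10). Between DHO and HO, 6 of these markers were called higher in DHO and 0 lower. They summed to 718 to 4470 FPKM in DHO libraries, 760 to 3115 FPKM in HO libraries and 2582 to 8638 FPKM in WT libraries, and their part in the Col4a5 and Col4a6 values was not tested. The remaining pair, Col4a3 and Col4a4, chains of the glomerular basement membrane, stayed at or below 0.0808 FPKM in every library.

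The type IV genes lie in head-to-head pairs. Col4a1 (chromosome 8, 11198423 to 11312889 in GRCm38, also called mm10) and Col4a2 (chromosome 8, 11312805 to 11449287) overlap by 85 bases at their starts, so fragments from that stretch cannot be given to either gene without strand. Col4a6 (chromosome X, 141165403 to 141474095) and Col4a5 (chromosome X, 141475370 to 141689236) are 1274 bases apart. Col4a4 and Col4a3 overlap by 114 bases on chromosome 1. The promoter windows of the 2 expressed pairs are shown because in HO against WT both genes of 1 pair rose and both genes of the other fell. Each window runs from 250 bases before to 50 bases after the start listed for the gene in a promoter table from RefSeq on GRCm38.p6, which need not be the outer end of the gene given above, read 5′ to 3′ on the strand of the gene, with capitals for matches on either strand to the GC box GGGCGG, to the box CCAAT, to the TATA box TATAAA, to the AP-1 letters TGANTCA or to the SMAD letters CAGACA.
Col4a1, chr8:11312777-11313076, minus strand: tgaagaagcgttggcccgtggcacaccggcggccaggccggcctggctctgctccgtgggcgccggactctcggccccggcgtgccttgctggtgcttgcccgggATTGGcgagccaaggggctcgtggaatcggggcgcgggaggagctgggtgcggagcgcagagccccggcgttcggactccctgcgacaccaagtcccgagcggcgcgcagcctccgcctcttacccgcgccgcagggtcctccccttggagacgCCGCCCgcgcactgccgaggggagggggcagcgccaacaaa
Col4a2, chr8:11312555-11312854, plus strand: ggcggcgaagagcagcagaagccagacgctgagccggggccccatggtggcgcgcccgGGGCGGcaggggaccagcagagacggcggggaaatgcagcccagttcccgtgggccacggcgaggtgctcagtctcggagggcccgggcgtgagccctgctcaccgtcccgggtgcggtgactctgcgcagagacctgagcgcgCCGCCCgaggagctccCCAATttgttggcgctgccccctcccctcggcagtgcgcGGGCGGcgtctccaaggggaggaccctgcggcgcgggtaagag
Col4a6, chrX:141474027-141474326, minus strand: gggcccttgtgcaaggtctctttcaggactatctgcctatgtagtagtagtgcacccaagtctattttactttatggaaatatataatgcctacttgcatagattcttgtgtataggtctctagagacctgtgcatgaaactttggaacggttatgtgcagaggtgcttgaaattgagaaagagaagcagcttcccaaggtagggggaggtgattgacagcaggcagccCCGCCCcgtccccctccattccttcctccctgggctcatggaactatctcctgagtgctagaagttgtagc
Col4a5, chrX:141475169-141475468, plus strand: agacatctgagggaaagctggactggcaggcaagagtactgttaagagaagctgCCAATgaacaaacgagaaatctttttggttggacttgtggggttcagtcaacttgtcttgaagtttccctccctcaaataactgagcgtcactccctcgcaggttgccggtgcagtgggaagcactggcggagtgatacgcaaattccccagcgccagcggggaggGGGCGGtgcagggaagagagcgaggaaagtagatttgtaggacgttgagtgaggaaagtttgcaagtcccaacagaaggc

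The Col4a1 and Col4a2 windows share 78 bases, read on opposite strands. The Col4a1 window was 74.0% G and C and the Col4a2 window 73.7%, against 48.3% in the Col4a6 window and 52.7% in the Col4a5 window. The Col4a1 window held 1 GC box and 1 CCAAT box and the Col4a2 window 3 GC boxes and 1 CCAAT box. The Col4a5 window held 1 of each, and the Col4a6 window 1 GC box. None of these windows held the TATA box, AP-1 or SMAD letters. Windows were found for 35 of the 44 collagen genes, and 22 of the 35 held a GC box, 13 a CCAAT box, 5 a TATA box, 1 an AP-1 site and 9 a SMAD box. Over all 32851 windows of the same length, 35.7% held a GC box, 37.4% a CCAAT box, 13.6% a TATA box, 7.81% an AP-1 site and 21% a SMAD box. A gene with more than 1 window counted once, which raises the collagen counts a little against the share over windows. A match describes these letters and is neither a binding site nor a cause.

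**Figure D3:**
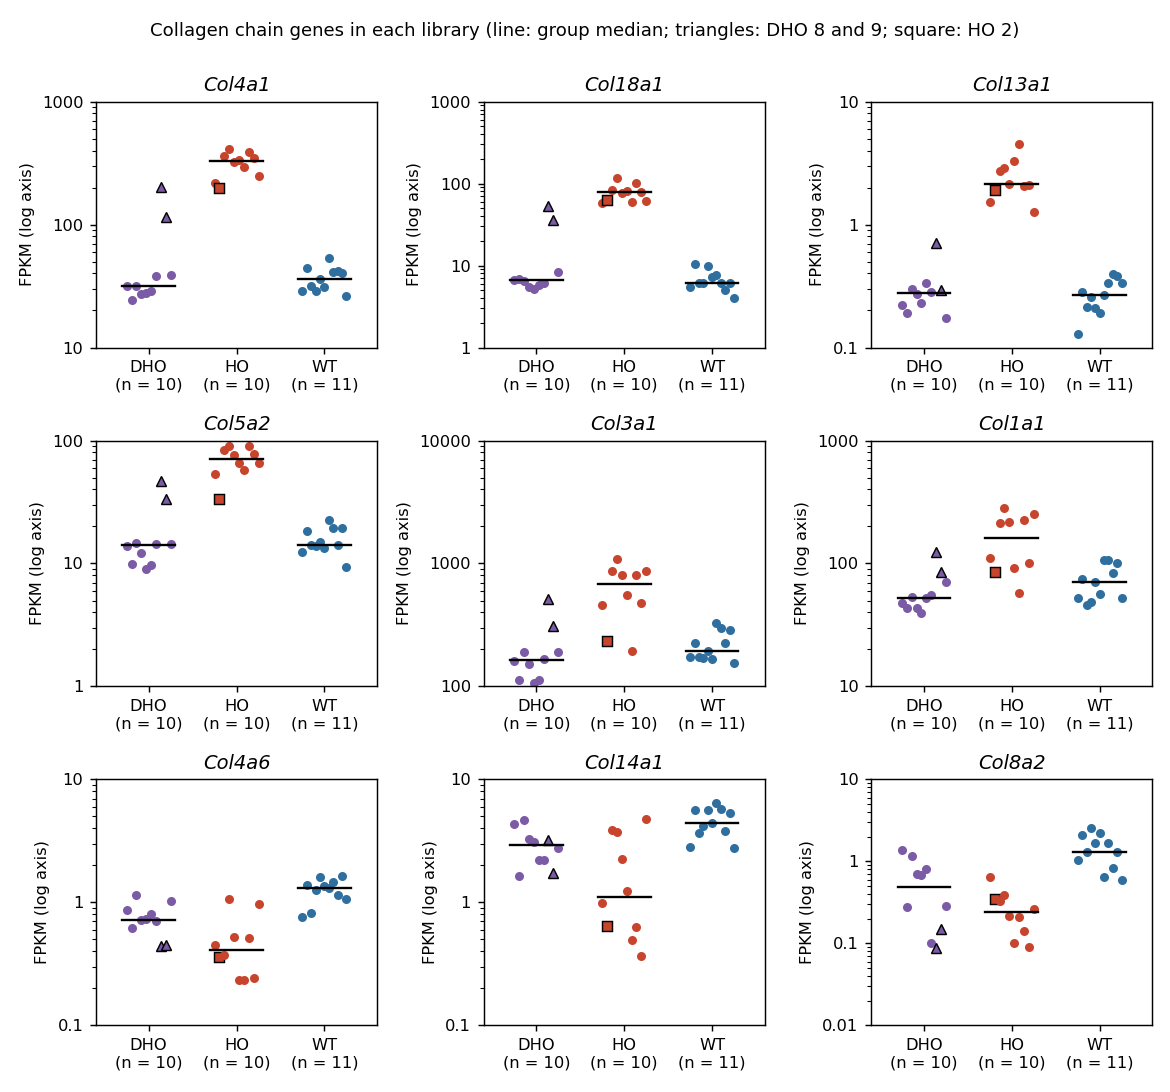
Each panel plots 1 collagen gene, with FPKM on a log axis for every DHO, HO and WT library and a line at each group median. Triangles mark DHO 8 and DHO 9 and the square marks HO 2. Col4a1, Col18a1, Col13a1 and Col5a2 separate HO from WT completely, Col3a1 and Col1a1 overlap, and Col4a6, Col14a1 and Col8a2 lie lower in HO than in WT.

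Of the multiplexins, Col18a1, whose chain carries the fragment endostatin at its end, showed the largest rise of all tested collagen genes. It had 5.245, 6.65 and 53.8 FPKM (lowest, median and highest) in DHO libraries, 57.2, 78.4 and 118.1 FPKM in HO libraries and 4.07, 6.18 and 10.5 FPKM in WT libraries. Every HO library lay above every WT library, as in 16.1% of all genes tested, and above every DHO library, a share not measured over all genes. It was 10.9-fold higher in HO than in WT, a log2 fold change of 3.45 (SE 0.303, limma adjusted p = 1.68e-11), with 3.30 in set 1 and 3.62 in set 2. In DHO against HO the log2 fold change was -2.95 (SE 0.310, limma adjusted p = 1.09e-09), and -3.49 without DHO 8 (53.8 FPKM) and DHO 9 (36.1 FPKM). Between DHO and WT it was 0.50 (SE 0.303, limma adjusted p = 0.242), -0.25 in set 1 and 1.58 in set 2, where it passed (limma adjusted p = 0.0264) and where DHO 8 and DHO 9 are 2 of the 4 DHO libraries. The 8 other DHO libraries lay between 5.245 and 8.455 FPKM.

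Col15a1, the other multiplexin, had smaller log2 fold changes. It had 4.72, 5.91 and 11.9 FPKM (lowest, median and highest) in DHO libraries, 8.83, 13.8 and 35.2 FPKM in HO libraries and 5.58, 8.84 and 17.4 FPKM in WT libraries, so HO and WT overlapped. Its log2 fold change was 0.80 in HO against WT (SE 0.235, limma adjusted p = 0.00305). The rise stood at 1.31 in set 1 and did not pass in set 2 (0.26, limma adjusted p = 0.452). In DHO against HO the log2 fold change was -1.09 (SE 0.240, limma adjusted p = 0.000191), and -0.43 in set 2 (adjusted p = 0.247). For Col18a1 RefSeq gives 2 starts, shown here because it was the gene with the largest rise, with capitals as above.
Col18a1 first start, chr10:77166481-77166780, minus strand: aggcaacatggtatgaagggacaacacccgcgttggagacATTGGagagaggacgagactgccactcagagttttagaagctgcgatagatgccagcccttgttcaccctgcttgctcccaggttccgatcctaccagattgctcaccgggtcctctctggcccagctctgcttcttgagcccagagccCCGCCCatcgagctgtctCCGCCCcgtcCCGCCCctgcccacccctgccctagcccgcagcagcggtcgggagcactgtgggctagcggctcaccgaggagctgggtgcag
Col18a1 second start, chr10:77113656-77113955, minus strand: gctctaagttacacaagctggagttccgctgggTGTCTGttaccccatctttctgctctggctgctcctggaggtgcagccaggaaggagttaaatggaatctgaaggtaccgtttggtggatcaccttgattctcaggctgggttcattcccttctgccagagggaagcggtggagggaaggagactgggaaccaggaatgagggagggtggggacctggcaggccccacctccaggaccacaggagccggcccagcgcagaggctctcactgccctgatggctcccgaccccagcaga
The first window was 63.3% G and C and held 3 GC boxes and 1 CCAAT box, and the second was 59.7% G and C and held 1 SMAD box. The table gives 1 value for the whole gene, so the 2 starts cannot be told apart here.

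All 7 tested fibrillar genes were called higher in HO against WT and lower in DHO against HO. Of all genes tested, 33.0% and 29.7% were. The calls of Col27a1, 1 of the 7, are tied to the filter, as stated above. Col3a1, the single chain of type III collagen of distensible tissues, and Col1a1 and Col1a2, the chains of type I collagen, were the most abundant fibrillar genes. Col3a1 had 106.3, 164.5 and 518.9 FPKM (lowest, median and highest) in DHO libraries, 193.9, 679.8 and 1092 FPKM in HO libraries and 156.6, 195.9 and 326.8 FPKM in WT libraries. Col1a1 had 39.7, 52.9 and 123.1 FPKM in DHO libraries, 57.9, 161.8 and 282.2 FPKM in HO libraries and 45.8, 71.2 and 106.6 FPKM in WT libraries. Col1a2 had 55.5, 74.6 and 153.2 FPKM in DHO libraries, 75.9, 187.9 and 302.6 FPKM in HO libraries and 65.3, 92.7 and 135.7 FPKM in WT libraries. HO 7 was the lowest HO library for all 3 genes and lay inside the WT range, and the HO libraries spread widely. The log2 fold change in HO against WT was 1.40 for Col3a1 (SE 0.278, limma adjusted p = 4.70e-05), 1.05 for Col1a1 (SE 0.255, adjusted p = 0.000500) and 0.89 for Col1a2 (SE 0.227, adjusted p = 0.000810). Within set 2 the type I chains did not pass, with 0.52 for Col1a1 (limma adjusted p = 0.238) and 0.45 for Col1a2 (adjusted p = 0.230), against 1.53 and 1.28 in set 1. Col3a1 passed in both sets, with 1.72 in set 1 and 1.03 in set 2 (limma adjusted p = 0.0372).

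The chains of type V collagen, which sits inside type I fibrils and is known to set their width, had larger log2 fold changes than the type I chains, a difference tested below for Col5a2 against Col1a1 alone. Col5a2 had 9.05, 14.1 and 47.2 FPKM (lowest, median and highest) in DHO libraries, 33.6, 70.9 and 90.4 FPKM in HO libraries and 9.41, 14.2 and 22.7 FPKM in WT libraries. Every HO library lay above every WT library, and in DHO only DHO 8 and DHO 9 exceeded 14.6 FPKM. The log2 fold change in HO against WT was 2.10 for Col5a2 (SE 0.227, limma adjusted p = 1.24e-09), with 2.10 in set 1 and 2.08 in set 2. Col5a1 averaged 38.8 FPKM in HO and 11.5 FPKM in WT (log2 fold change 1.71, SE 0.246, limma adjusted p = 2.84e-07), and Col5a3 averaged 12.9 FPKM in HO and 2.98 FPKM in WT (1.93, SE 0.212, adjusted p = 1.82e-09). Col27a1, a fibrillar chain of cartilage and other tissues, averaged 1.85 FPKM in HO and 0.924 FPKM in WT (log2 fold change 0.67, SE 0.136, limma adjusted p = 6.02e-05). Col5a2 (chromosome 1, 45374331 to 45503282) lies 24624 bases from Col3a1 (chromosome 1, 45311538 to 45349706), with no protein-coding gene between them.

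Against HO, Col5a2 fell most among the fibrillar genes in DHO, with a log2 fold change of -2.09 (SE 0.232, limma adjusted p = 3.13e-09), followed by Col5a3 with -1.83 (SE 0.217, adjusted p = 1.03e-08) and Col5a1 with -1.69 (SE 0.252, adjusted p = 6.50e-07). For Col3a1 the value was -1.65 (SE 0.285, limma adjusted p = 6.86e-06), for Col1a1 -1.31 (SE 0.261, adjusted p = 5.00e-05), for Col1a2 -1.10 (SE 0.232, adjusted p = 0.000105) and for Col27a1 -0.70 (SE 0.139, adjusted p = 5.08e-05). In set 2 alone, Col3a1 (-0.94, limma adjusted p = 0.0730), Col1a1 (-0.65, adjusted p = 0.182), Col1a2 (-0.50, adjusted p = 0.221) and Col27a1 (-0.53, adjusted p = 0.0579) did not pass. Between DHO and WT the 7 genes lay from -0.26 (Col1a1) to 0.09 (Col5a3), and none passed (limma). The fibroblast markers (10 genes) summed to 372 to 1316 FPKM in DHO libraries, 976 to 2465 FPKM in HO libraries and 521 to 946 FPKM in WT libraries. Of all genes tested, 33.0% were called higher and 38.4% lower in HO against WT, and 29.7% lower and 39.0% higher in DHO against HO. Of the 10 markers, 5 were called higher and 1 lower in HO against WT, and 6 lower and 1 higher in DHO against HO. Their part in the fibrillar collagen values was not tested.

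The tested chains of type VI collagen, the beaded filaments that link cells to the matrix, also rose in HO, 4 of 4. Of all genes tested, 33.0% were called higher in HO than in WT. The call of Col6a4, 1 of the 4, is tied to the filter, as stated above. Col6a1 had 32.4, 39.8 and 69.4 FPKM (lowest, median and highest) in DHO libraries, 66.5, 129.9 and 169.7 FPKM in HO libraries and 32.1, 54.3 and 76.1 FPKM in WT libraries. Col6a2 had 20.4, 22.9 and 40.8 FPKM in DHO libraries, 34.1, 75.0 and 111.7 FPKM in HO libraries and 19.6, 29.1 and 45.0 FPKM in WT libraries. Col6a3, the longest of the main chains, had 7.52, 9.22 and 19.9 FPKM in DHO libraries, 9.53, 20.9 and 38.2 FPKM in HO libraries and 6.25, 8.82 and 16.1 FPKM in WT libraries. HO and WT overlapped in each of these genes, with HO 7 lowest among HO libraries. The log2 fold change in HO against WT was 1.17 for Col6a1 (SE 0.189, limma adjusted p = 2.05e-06), 1.26 for Col6a2 (SE 0.206, adjusted p = 2.64e-06) and 1.04 for Col6a3 (SE 0.221, adjusted p = 0.000114). In set 2, Col6a3 did not pass (0.78, limma adjusted p = 0.0689). Between DHO and HO the values were -1.40 for Col6a1 (SE 0.193, limma adjusted p = 1.80e-07), -1.37 for Col6a2 (SE 0.211, adjusted p = 1.04e-06) and -0.95 for Col6a3 (SE 0.226, adjusted p = 0.000450). Within set 2 the Col6a3 value was -0.40 and did not pass (limma adjusted p = 0.373).

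Col6a4, Col6a5 and Col6a6 encode chains that can take the place of the Col6a3 chain and lie side by side on chromosome 9. Col6a4 averaged 1.304 ± 1.05 FPKM in DHO, 1.92 FPKM in HO and 0.733 FPKM in WT, and its log2 fold change in HO against WT was 0.91 (SE 0.220, limma adjusted p = 0.000506). Its fall in DHO against HO was just past the threshold (-0.50, SE 0.225, limma adjusted p = 0.0491). HO 2 (4.06 FPKM) and DHO 9 (3.84 FPKM) held the highest Col6a4 values, and without HO 2 the fall did not pass (-0.39, limma adjusted p = 0.111). Within set 2 the value was 0.13 (limma adjusted p = 0.714). Without DHO 8 and DHO 9 it was -0.77, a shift in the direction fixed by that choice, so no test is read from it. Col6a5 reached 1.98 FPKM in HO 10 and at most 0.556 FPKM in every DHO library. Col6a6 stayed at or below 0.199 FPKM.

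**Figure D4:**
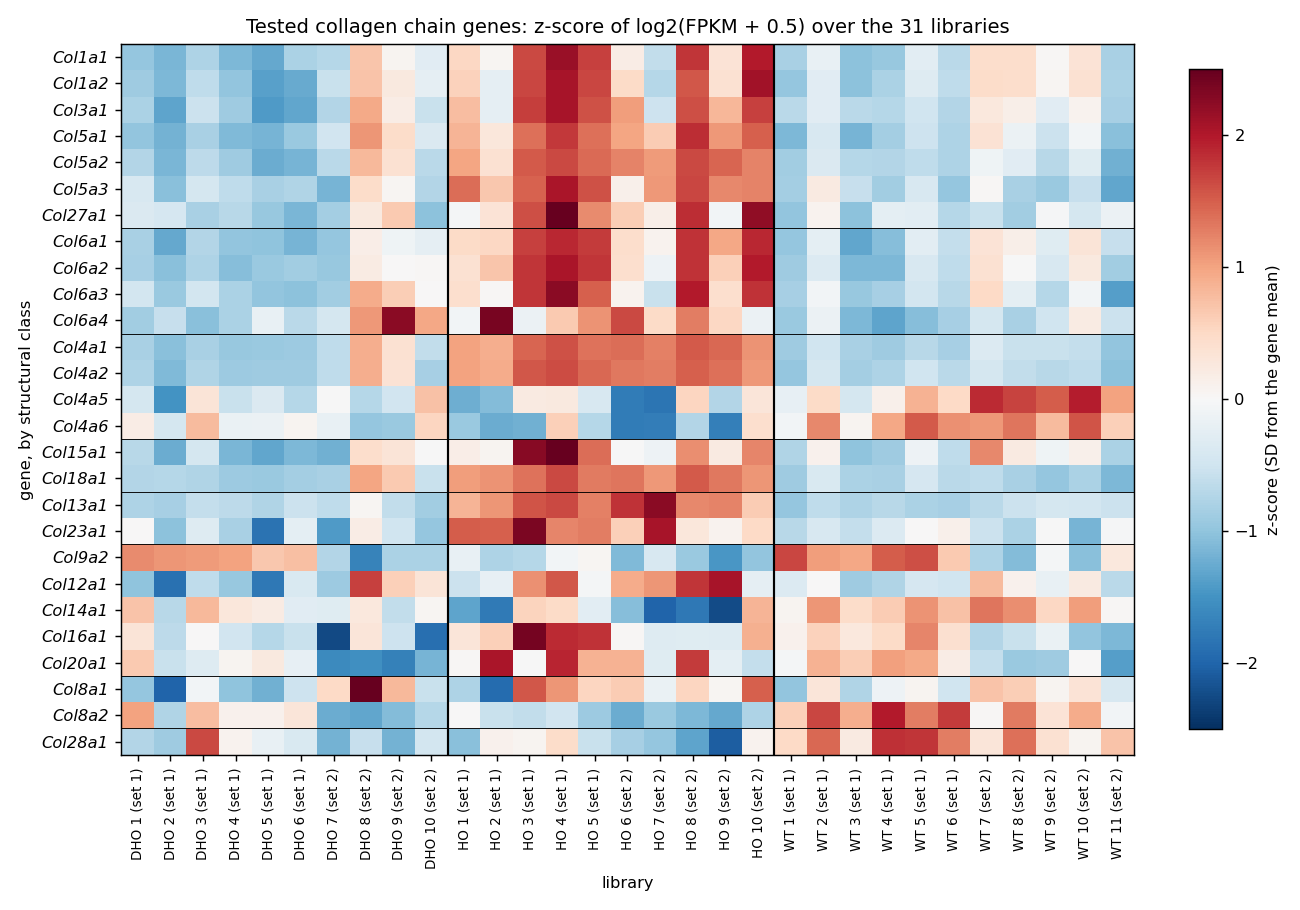
Colours give the z-score of log2(FPKM + 0.5) of each tested collagen gene over the 31 libraries, with DHO libraries on the left, HO libraries in the middle and WT libraries on the right, the set of each library in its label, and genes in rows by structural class. Most fibrillar, type VI and multiplexin rows are red across HO libraries and in DHO 8, while Col4a5, Col4a6, Col8a2, Col14a1 and Col28a1 are blue in most HO libraries and red in most WT libraries.

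The 2 tested transmembrane collagens were called higher in HO than in WT, where 33.0% of all genes tested were. Col13a1 reached 1 FPKM in HO libraries alone, and Col23a1 in 10 HO, 4 WT and 2 DHO libraries. Both calls are tied to the filter, so no result is read from this count. Col13a1, a membrane collagen of cell junctions, had 0.172, 0.275 and 0.711 FPKM (lowest, median and highest) in DHO libraries, 1.26, 2.13 and 4.53 FPKM in HO libraries and 0.129, 0.266 and 0.393 FPKM in WT libraries. The HO libraries lay above all others, and HO 7, which was lowest for the type I chains, was highest here. Its log2 fold change was 1.88 in HO against WT (SE 0.134, limma adjusted p = 2.27e-13) and -1.84 in DHO against HO (SE 0.137, adjusted p = 1.35e-12). Since Col13a1 passed the filter only through HO, its calls and its separation from both other groups were bound to its entry. Col23a1, a shed membrane collagen, had 0.363, 0.783 and 1.19 FPKM in DHO libraries, 1.13, 1.89 and 2.94 FPKM in HO libraries and 0.582, 0.889 and 1.16 FPKM in WT libraries. Its log2 fold change was 0.73 in HO against WT (SE 0.130, limma adjusted p = 9.01e-06) and -0.87 in DHO against HO (SE 0.133, adjusted p = 9.84e-07). Col17a1, a collagen of hemidesmosomes, had 0.0371 to 0.132 FPKM in DHO libraries, 0.0927 to 0.317 FPKM in HO libraries and 0.0271 to 0.172 FPKM in WT libraries, and Col25a1 stayed at or below 0.252 FPKM.

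Among the fibril-associated collagens the counts of calls were near the share over all genes tested (33.0% higher and 38.4% lower), so they are given by gene. Of 5 tested in HO against WT, Col12a1 was called higher, Col14a1 and Col9a2 lower, and Col16a1 and Col20a1 did not pass. Col12a1, which binds fibrils and is known to respond to load, had 1.91, 3.17 and 8.95 FPKM (lowest, median and highest) in DHO libraries, 3.50, 6.75 and 10.3 FPKM in HO libraries and 3.01, 3.82 and 6.16 FPKM in WT libraries. Its log2 fold change in HO against WT was 0.55 (SE 0.205, limma adjusted p = 0.0178), and it did not pass in set 2 (0.59, adjusted p = 0.0701) or after scaling to TPM (0.45, adjusted p = 0.0842). It fell in DHO against HO (-0.69, SE 0.209, limma adjusted p = 0.00457), and within set 2 that value did not pass (-0.38, adjusted p = 0.268). Col14a1, a related chain on the surface of fibrils, had 1.66, 2.96 and 4.65 FPKM in DHO libraries, 0.369, 1.11 and 4.77 FPKM in HO libraries and 2.75, 4.41 and 6.49 FPKM in WT libraries. HO libraries covered a wide range for Col14a1 and overlapped both other groups. Its log2 fold change was -1.35 in HO against WT (SE 0.273, limma adjusted p = 6.00e-05) and 0.76 in DHO against HO (SE 0.279, adjusted p = 0.0172), and the second did not pass within set 1 (0.54, adjusted p = 0.155) or set 2 (0.92, adjusted p = 0.0863).

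Col16a1, a collagen of small fibrils, had 3.77, 6.40 and 8.28 FPKM (lowest, median and highest) in DHO libraries, 6.81, 8.59 and 15.1 FPKM in HO libraries and 5.35, 7.74 and 10.8 FPKM in WT libraries. It fell in DHO against HO (log2 fold change -0.54, SE 0.154, limma adjusted p = 0.00280) and missed the threshold in HO against WT (0.30, SE 0.151, adjusted p = 0.0774). The fall did not pass within set 2 (-0.44, limma adjusted p = 0.0653), and the HO against WT value passed within set 1 (0.35, adjusted p = 0.0331). With median-of-ratios scaling the HO against WT value passed (limma adjusted p = 0.0274). Col20a1 averaged 0.799 FPKM in DHO, 1.14 FPKM in HO and 0.949 FPKM in WT, and fell in DHO against HO (-0.33, SE 0.114, limma adjusted p = 0.0105). That value did not pass within set 1 (-0.26, limma adjusted p = 0.0549) or after scaling to TPM (-0.28, adjusted p = 0.0540). Col9a2, a chain of the type IX collagen of cartilage, averaged 1.43 FPKM in DHO, 0.606 FPKM in HO and 1.73 FPKM in WT (log2 fold change in HO against WT -0.86, SE 0.303, limma adjusted p = 0.0127). Within set 2 the HO against WT value was -0.34 (limma adjusted p = 0.221), against -1.25 in set 1. Between DHO and HO its value of 0.66 did not pass (limma adjusted p = 0.0603), while it passed within set 1 (1.02, adjusted p = 2.35e-05). Without DHO 8 and DHO 9, singled out by their collagen values, the value was 0.94, and no test is read from it. The cartilage markers Acan and Matn1 stayed under 0.1 FPKM in every library, and the 5 cartilage markers summed to 0.275 to 0.742 FPKM in DHO libraries, 0.190 to 1.32 FPKM in HO libraries and 0.544 to 1.89 FPKM in WT libraries.

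Type VIII collagen, a short-chain collagen of vessel walls and the cornea, has 2 chains, of which Col8a2 passed the test and Col8a1 did not, and the difference between them was not tested. Col8a2 had 0.0877, 0.488 and 1.38 FPKM (lowest, median and highest) in DHO libraries, 0.0911, 0.242 and 0.641 FPKM in HO libraries and 0.594, 1.31 and 2.57 FPKM in WT libraries. It fell against WT in HO, with a log2 fold change of -1.29 (SE 0.210, limma adjusted p = 2.52e-06), and in DHO, with -0.92 (SE 0.210, adjusted p = 0.00396). Col8a2 reached 1 FPKM in 8 WT, 2 DHO and 0 HO libraries, so both falls are tied to its entry through the filter. The DHO value did not pass within set 1 (-0.81, limma adjusted p = 0.0886). Between DHO and HO, Col8a2 differed by 0.37 and did not pass (limma adjusted p = 0.127). Without DHO 8 and DHO 9, singled out by their collagen values, Col8a2 differed by 0.54, and no test is read from it. Col8a1 had 0.7096, 1.997 and 11.5 FPKM in DHO libraries, 0.760, 3.77 and 6.62 FPKM in HO libraries and 1.501, 2.87 and 4.15 FPKM in WT libraries. Over all libraries it passed in no comparison. Its value in DHO against HO was -0.39 (limma adjusted p = 0.264). Leaving out DHO 8, which held the 11.5 FPKM, moved it to -0.62, a shift in the direction fixed by that choice, so no call is read from it. Col28a1, a collagen with von Willebrand factor domains found around nerves, averaged 0.727 FPKM in DHO, 0.628 FPKM in HO and 1.36 FPKM in WT. Its log2 fold change was -0.74 in HO against WT (SE 0.161, limma adjusted p = 0.000157) and -0.63 in DHO against WT (SE 0.161, adjusted p = 0.00788). The second did not pass within set 1 (-0.61, limma adjusted p = 0.180). Both falls are tied to the entry of Col28a1 mainly through WT. Of the markers of enteric glia (5 genes), 4 were called higher and 1 lower in HO against WT, where 33.0% and 38.4% of all genes tested were. None was called in DHO against WT. Their part in the Col28a1 values was not tested.

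The 17 collagen genes under the filter included the chains of cartilage and skin. Of these, 16 never reached 1 FPKM (highest 0.691 FPKM, for Col24a1), and Col6a5 did so in HO 10 alone. Col7a1, which forms the anchoring fibrils under stratified epithelia, had 0.0162, 0.0724 and 0.126 FPKM (lowest, median and highest) in DHO libraries, 0.129, 0.379 and 0.639 FPKM in HO libraries and 0.0219, 0.0820 and 0.133 FPKM in WT libraries. Every HO library lay above every DHO library for Col7a1, by a narrow margin (0.129 against 0.126 FPKM). The share of all genes that separate HO from DHO was not measured. Col24a1, a fibrillar chain of bone, had 0.0235, 0.0893 and 0.172 FPKM in DHO libraries, 0.144, 0.417 and 0.691 FPKM in HO libraries and 0.0203, 0.0952 and 0.283 FPKM in WT libraries. Col22a1, a collagen of tissue junctions, had 0.0921 to 0.245 FPKM in HO libraries and 0.0111 to 0.0785 FPKM in WT libraries, which do not overlap. Col11a1 and Col11a2, fibrillar chains of cartilage, stayed at or below 0.446 and 0.544 FPKM. Col2a1, the main chain of cartilage, was at most 0.0216 FPKM, Col10a1 0.0813 FPKM, Col9a1 0.0591 FPKM, Col9a3 0.345 FPKM, Col19a1 0.0240 FPKM and Col26a1 0.110 FPKM.

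Of 6 ratios between chains, 5 differed between HO and WT. A ratio was measured in each library as the difference of log2(FPKM + 0.5) of its chains, and tested over the 6 ratios and 3 comparisons with permutation tests adjusted over the 18. The log2 ratio of Col4a5 to Col4a1 was -7.27 ± 0.458 (SD, n = 10) in HO and -3.43 ± 0.341 (n = 11) in WT, a difference of -3.83 (permutation test, adjusted p = 9.00e-05, which goes with the smallest unadjusted p the resamples can give). In DHO it was -4.33 ± 1.07 (n = 10), which is 2.94 above HO and 0.89 below WT (permutation test, adjusted p = 9.00e-05 and 0.00588). Within set 2 the difference of DHO from HO was 2.36 and did not pass (exact permutation test, adjusted p = 0.0714). The difference of DHO from WT was -0.404 without DHO 8 and DHO 9, and no test is read from that value. It was -0.19 within set 1 and did not pass (exact permutation test, adjusted p = 0.237). The log2 ratio of Col5a2 to Col1a1 was -1.10 ± 0.621 in HO and -2.15 ± 0.275 in WT, 1.04 higher in HO (permutation test, adjusted p = 9.00e-05), and -1.88 ± 0.340 in DHO, 0.77 below HO (adjusted p = 0.00588). Within set 2 that difference of DHO from HO, -0.888, did not pass (exact permutation test, adjusted p = 0.200).

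Smaller shifts were measured within the abundant pairs. The log2 ratio of Col1a1 to Col1a2 was -0.26 ± 0.162 (SD, n = 10) in HO and -0.42 ± 0.0858 (n = 11) in WT, a difference of 0.16 (permutation test, adjusted p = 0.0194). That of Col3a1 to Col1a1 was 1.95 ± 0.306 in HO and 1.61 ± 0.154 in WT, a difference of 0.34 (permutation test, adjusted p = 0.00679). That of Col4a1 to Col4a2 was 0.74 ± 0.0832 in HO and 0.59 ± 0.161 in WT, a difference of 0.15 (permutation test, adjusted p = 0.0258). In none of these 3 ratios did HO and WT separate, and each missed the threshold within at least 1 of the 2 sets. The ratio of Col6a3 to Col6a1 was -2.03 ± 0.154 in DHO, -2.48 ± 0.205 in HO and -2.35 ± 0.261 in WT on the log2 scale. It was 0.45 higher in DHO than in HO (permutation test, adjusted p = 9.00e-05) and 0.31 higher in DHO than in WT (adjusted p = 0.00805), while HO and WT differed by -0.13 (adjusted p = 0.245). Within set 1 the difference of DHO from WT was 0.102 and did not pass (exact permutation test, adjusted p = 0.273).

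**Figure D5:**
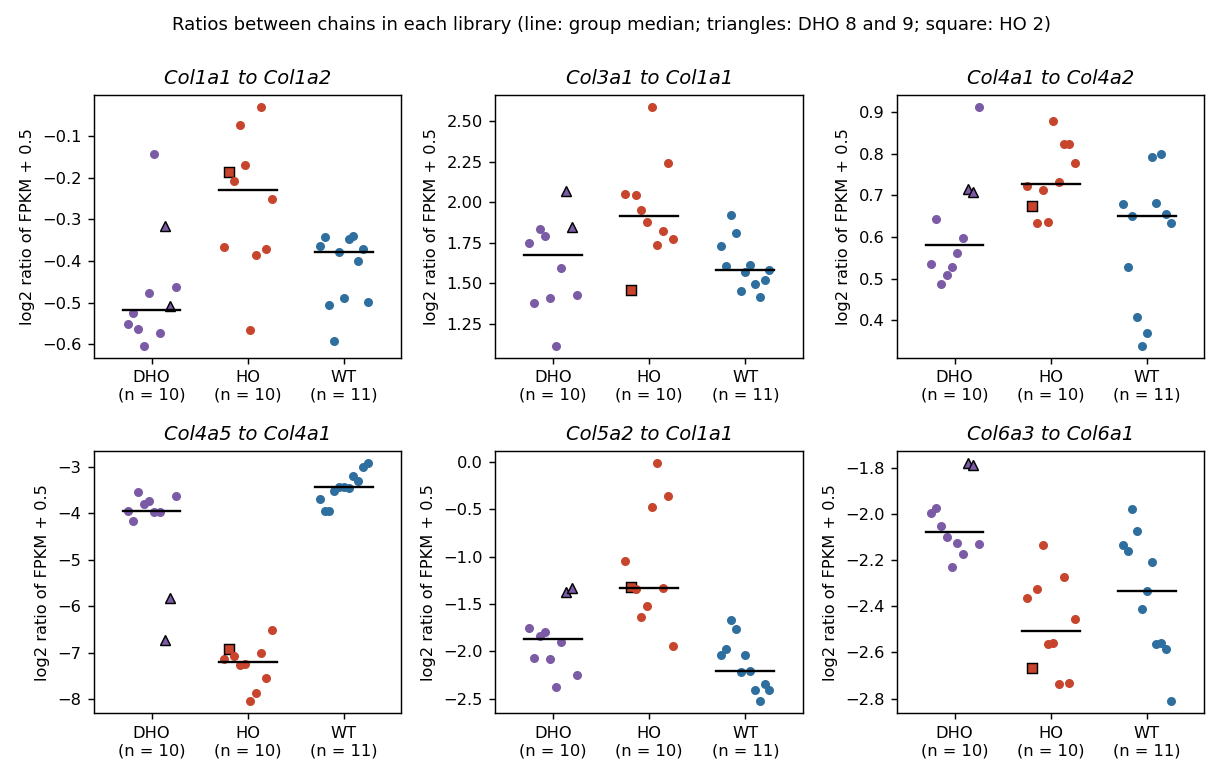
Each panel plots the log2 ratio of the FPKM + 0.5 of 2 chains in every DHO, HO and WT library, with a line at each group median, triangles for DHO 8 and DHO 9 and a square for HO 2. For Col4a5 to Col4a1 DHO 8 lies at -6.74, the HO libraries from -8.05 to -6.50 and the WT libraries from -3.95 to -2.91.

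Genes that act on collagen chains after their synthesis were listed by role and counted in the same limma fit, in which 33.0% of all genes tested were called higher and 38.4% lower in HO against WT, and 39.0% higher and 29.7% lower in DHO against HO. Among those that fold and modify the chains in the endoplasmic reticulum, 15 of 17 tested were called higher in HO than in WT and the other 2 did not pass, with a median log2 fold change of 1.34. Between DHO and HO, 16 of 17 were called lower in DHO. Plod1, a lysyl hydroxylase, averaged 45.7 ± 9.32 FPKM (SD, n = 10) in HO and 10.2 ± 1.21 FPKM (n = 11) in WT, and Fkbp10, a collagen chaperone, 41.9 ± 9.75 FPKM in HO and 7.04 ± 1.54 FPKM in WT. All 6 crosslinking enzymes were called higher in HO than in WT and lower in DHO than in HO. Lox, lysyl oxidase, which joins chains into fibrils, averaged 66.7 ± 31.3 FPKM in HO and 1.53 ± 0.730 FPKM in WT (log2 fold change 5.0, SE 0.393, limma adjusted p = 1.66e-12). Loxl2, its relative that acts on type IV collagen, averaged 57.1 ± 18.5 FPKM in HO and 8.35 ± 2.92 FPKM in WT (2.69, SE 0.281, adjusted p = 5.65e-10).

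Of the genes for secretion and cutting of the propeptides, 5 of 10 tested were called higher in HO than in WT and 2 lower, with a median log2 fold change of 0.19. Bmp1 and Adamts2, the proteases that remove the propeptides at the end and the start of the chains, had log2 fold changes of 2.01 and 1.74 in HO against WT (limma adjusted p = 7.61e-12 and 1.20e-10). Creb3l1, a transcription factor of the secretory pathway, was lower (-2.23, limma adjusted p = 6.77e-09), as was Mia2 (-0.33, adjusted p = 0.0242), a gene for the export of large cargo. Of the collagen receptors, 6 of 9 were higher and 2 lower in HO than in WT. Lair1, an inhibitory receptor on leukocytes, averaged 7.30 ± 2.71 FPKM in HO and 0.776 ± 0.161 FPKM in WT, and Cd44, a cell-surface receptor chiefly of hyaluronan, 76.0 ± 26.8 FPKM in HO and 6.98 ± 2.68 FPKM in WT. Ddr1, a receptor kinase for collagen on epithelial cells, was lower (-1.32, limma adjusted p = 5.26e-09), and so was Adgrg1, an adhesion receptor that binds type III collagen (-0.65, adjusted p = 0.000321).

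The matrix partners of collagen were divided. Of 13 fibril organisers tested, 7 were called higher and 5 lower in HO than in WT, and 6 were lower in DHO than in WT, where 8.70% of all genes were. Fn1, fibronectin, averaged 205 ± 52.3 FPKM in HO and 60.8 ± 16.8 FPKM in WT, and Ecm1, extracellular matrix protein 1, 283 ± 75.8 FPKM in HO and 64.2 ± 12.3 FPKM in WT. Ogn, the small leucine-rich proteoglycan osteoglycin, averaged 24.3 ± 13.3 FPKM in DHO, 6.88 ± 5.23 FPKM in HO and 64.7 ± 28.2 FPKM in WT, and was lower in HO than in WT (-3.35, limma adjusted p = 7.50e-10) and in DHO than in WT (-1.51, adjusted p = 0.00449). Prelp, of the same family, had a log2 fold change of -1.18 in HO against WT (limma adjusted p = 2.44e-08). Of 14 basement membrane partners, 8 were higher and 3 lower in HO than in WT. Nid2, a nidogen that links laminin to type IV collagen, and Lama5, a laminin chain, had log2 fold changes of 2.24 and 2.08 (limma adjusted p = 6.42e-11 and 1.96e-10). Lama3 and Lamb3, chains of the laminin of epithelial hemidesmosomes, had -2.5 and -4.01 (limma adjusted p = 1.01e-11 and 4.28e-10).

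Of 12 tested genes of collagen breakdown, which include proteases and their inhibitors, 10 were called higher in HO than in WT, 1 lower, with a median log2 fold change of 2.22. Ctsb and Ctsl, lysosomal cathepsins, averaged 397 ± 62.9 and 261 ± 28.8 FPKM in HO and 122 ± 7.67 and 72.0 ± 13 FPKM in WT. Mmp15, a membrane matrix metalloproteinase, was the 1 that was lower (-1.94, limma adjusted p = 1.18e-08). Of 17 genes of the TGF-beta axis, whose ligand is known to raise collagen transcription in fibroblasts, 12 were higher and 3 lower in HO than in WT. Tgfb1, the ligand, averaged 21.2 ± 19.7 FPKM in DHO, 83.6 ± 18.1 FPKM in HO and 11.1 ± 2.15 FPKM in WT. Smad2, a signal transducer, and Ltbp4, a binding protein of the latent ligand, were lower in HO than in WT (-0.49 and -0.89, limma adjusted p = 1.30e-05 and 1.52e-05). In DHO against WT the crosslinking enzymes and the basement membrane partners had no call in either direction in limma, and the highest number of calls was the 6 lower fibril organisers. The neutrophil markers, which include the collagenase gene Mmp8, summed to 241 to 4608 FPKM in DHO libraries, 6642 to 53736 FPKM in HO libraries and 148 to 334 FPKM in WT libraries. The macrophage markers summed to 365 to 1870 FPKM in DHO libraries, 1592 to 4825 FPKM in HO libraries and 173 to 484 FPKM in WT libraries. DHO 8 held the top value of both in DHO, and the part of these cells in the breakdown genes was not tested.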

How the data were processed

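Per the labels' protocols, TRIzol was used to extract colon RNA and a VAHTS Universal V6 kit to build the libraries. The submitters' processing notes name fastp, HISAT2, HTSeq and the build mm10. No version, annotation, strand setting or gene length is given in the sources used here. Values deposited by the authors are FPKM, 1 column for each of 31 libraries, with no counts, and near-identical or overlapping genes may share reads.

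Depth was read from the steps of low FPKM values with GENCODE vM21 exon lengths. Positions and promoters are RefSeq's on GRCm38.p6. A gene was tested if it reached 1 FPKM in 10 or more libraries, with limma 3.58.1 in R 4.3.3 on log2(FPKM + 0.5), with a variance trend, robust moderation, 1 mean per group over all libraries and two-sided Benjamini-Hochberg adjusted p-values (threshold 0.05). A fold change on this scale understates the change of low genes. Collagen shares and chain ratios were tested by permutation in SciPy 1.17.1 (100000 resamples, exact where a group had under 10 libraries). The procedure was tested on simulated data. No libraries had identical values (highest correlation 0.996). The members, gene lists and alternatives were chosen with earlier results of these data known. Full statistics are given for tested collagen genes called in a comparison, also those with a mean under 1 FPKM, and others are given by values. From each other list, the 2 called genes with the smallest p in HO against WT in each direction are given. Of the genes this rule picks, 1 is not reported here.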

Additional observations from a re-analysis of the deposited data

Results flagged for a closer look

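In 68 groups of 10 libraries (the 27 tested collagen genes, the collagen share and 6 chain ratios, each in DHO and in HO), the highest or lowest library was set against its nearest neighbour, and 7 stood beyond the 95% limit of Dixon's test, which chance passes in about 1 in 20 groups. All 7 were in DHO and 5 were DHO 8. Col3a1 in DHO 8 was 519 FPKM, with the next DHO library at 309 FPKM. Col4a1 in DHO 8 was 200 FPKM (next 115 FPKM) and Col4a2 was 122 FPKM (next 70.0 FPKM). Col8a1 in DHO 8 was 11.5 FPKM (next 4.42 FPKM) and Col13a1 was 0.711 FPKM (next 0.334 FPKM). Col6a4 in DHO 9 was 3.84 FPKM (next 2.10 FPKM, in DHO 8). Col28a1 in DHO 3 was 1.85 FPKM (next 0.878 FPKM), outside the pair of libraries that stand apart.

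The difference of effects between the 2 sets was tested as an interaction in limma, added after seeing the data. For Col18a1 the DHO against WT log2 fold change was 1.84 higher in set 2 than in set 1 (limma adjusted p = 0.0307). For Col9a2 the DHO against HO value was 1.04 lower in set 2 (difference -1.04, limma adjusted p = 0.0438). Over all genes tested, 568 differed between the sets in DHO against HO and 1256 in DHO against WT. In HO against WT limma called 0 genes, and 377 had an unadjusted p under 0.05, 7 of them collagen genes.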

How the results depend on the processing

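In HO against WT, the count of collagen genes called higher (18) lay between 13 (set 2 alone) and 24 (no filter) over all settings run, and the count called lower (6) between 5 and 8. Scaling each library to TPM moved the median of all genes in HO against WT to -0.18 and in DHO against HO to 0.24, with collagen medians of 0.77 and -0.89. Under the other settings, 1049 values of single genes kept their direction and side of the threshold, 32 no longer passed, 18 newly passed and 35 changed sign. No paired analysis was possible because the replicate numbers follow the order of listing and pair no libraries. The file gives no counts, so genes near 0 FPKM are limited by depth, and the cause of the changes below was not tested.

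Set 2 alone gave 0 collagen genes higher in DHO against HO in limma and 11 lower, and 2 higher in DHO against WT (Col6a4 and Col18a1). Without DHO 8 and DHO 9, 4 were higher in DHO against HO, a descriptive count. All genes called in DHO against WT numbered 2719, against 68 in set 1, 5102 in set 2, 4550 with the set as a term and 1306 without DHO 8 and DHO 9. Set 1 gave 0 collagen genes lower in DHO against WT in limma, and 5 at an unadjusted p under 0.05. The collagen share in DHO against HO was -0.159 percentage points in set 2. In DHO against WT it was -0.0214 in set 1, -0.0342 without DHO 8 and DHO 9, from -0.0209 to -0.00766 without 1 of them, and -14.6 FPKM as a plain sum.

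Of the chain ratios in set 1, Col3a1 to Col1a1 was 0.193 in HO against WT, -0.330 in DHO against HO and -0.137 in DHO against WT, Col4a1 to Col4a2 was 0.180 in HO against WT, and in DHO against WT Col4a5 to Col4a1 was -0.192, Col5a2 to Col1a1 was -0.0332 and Col6a3 to Col6a1 was 0.102. In set 2, Col1a1 to Col1a2 was 0.0702 in HO against WT and -0.144 in DHO against HO, Col3a1 to Col1a1 was -0.298 in DHO against HO, Col4a1 to Col4a2 was 0.0951 in HO against WT and -0.0735 in DHO against HO, and in DHO against HO Col4a5 to Col4a1 was 2.36 and Col5a2 to Col1a1 was -0.888. In DHO against WT, Col3a1 to Col1a1 was -0.0750 without DHO 8 and DHO 9, and from -0.0404 to -0.0155 without 1 of them.

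Single genes changed sign only where the main value had not passed or, for Col6a4, was near the threshold. In DHO against HO, set 1 gave -0.05 for Col4a5, and set 2 gave 0.13 for Col6a4, 0.24 for Col8a1, -0.01 for Col8a2 and -0.02 for Col9a2. In DHO against WT, set 1 gave -0.22 for Col5a1, -0.33 for Col5a2, -0.11 for Col5a3, -0.22 for Col4a1, -0.27 for Col4a2, -0.09 for Col6a3 and -0.25 for Col18a1. Set 2 gave 0.09 for Col3a1, 0.07 for Col27a1, 0.41 for Col8a1 and 0.21 for Col12a1. Without DHO 8 and DHO 9 the values were -0.30 for Col5a1, -0.33 for Col5a2, -0.11 for Col5a3, -0.22 for Col4a1, -0.23 for Col4a2, -0.11 for Col6a3, 0.08 for Col9a2, -0.04 for Col13a1 and -0.04 for Col18a1. With DHO 8, DHO 9 or HO 2 left out in turn, the ranges were -0.16 to 0.02 for Col5a1, -0.17 to 0.0097 for Col5a2, -0.02 to 0.09 for Col5a3, -0.02 to 0.23 for Col4a1, -0.03 to 0.21 for Col4a2, -0.01 to 0.09 for Col6a3 and -0.03 to 0.04 for Col13a1. Median-of-ratios scaling gave -0.0016 for Col5a2.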
